A study of Mus musculus with 15 samples.

Results

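The genes described here are 32 mouse genes of cholesterol and fatty acid synthesis, taken by symbol from the 33321 genes of the deposited count table. They fall into 18 enzymes of the sterol branch, 6 genes that control the SREBP transcription factors or carry sterols, and 8 enzymes of the fatty acid branch. All 32 were among the 16795 genes with enough reads to be tested, and their counts ran from 153 to 52596 reads per library. RNA was sequenced from mouse corpus callosum, the large white matter tract that joins the hemispheres, in 15 libraries of 5 groups with 3 replicates each. Sham_Ipsil, called sham below, is the site of a saline injection in sham-operated mice. LPC_Ipsil is the tissue injured by lysophosphatidylcholine, a detergent-like lipid that strips myelin, and LPC_Contra is the matching tissue of the opposite side. LNIO_Ipsil is the tissue injured by L-NIO, an inhibitor of the nitric oxide synthase of the vessel wall, and LNIO_Contra is its opposite side. Tissue of both sides was collected 4 days after either injury, while the labels name no day for sham. The sources used here name no genotype, strain or age. Nor do they say whether replicates were separate mice, and p-values then reflect only how far these libraries differ, which may be technical.

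Cholesterol is built from acetyl-CoA by a long chain of enzymes that passes through mevalonate, squalene and lanosterol. Fatty acids are built from the same precursor by a shorter chain, then lengthened and desaturated. Both branches are switched on by the SREBP transcription factors, which the protein Scap escorts out of the endoplasmic reticulum when sterols are low and which the Insig proteins hold back when sterols are high. The product of Srebf2 acts mainly on sterol genes and that of Srebf1 mainly on fatty acid genes, and Srebf1 is also switched on by the oxysterol receptor LXR. The brain makes its own cholesterol, since lipoproteins of the blood do not cross into it, and myelin holds much of it.

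Promoter letters are shown for the member that passed the test, for its paralog, and for 1 enzyme of each branch, to show where the searched elements lie. The Srebf1, Fasn and Hmgcs1 stretches hold elements absent from the other matched members, so they are not typical of the members. The Srebf1 window shown is the only window of that gene with the LXR element. Of the 32 members, 25 had a window in the RefSeq table of mouse promoters, build GRCm38.p6, which spans 250 bases before to 50 bases after each start. The deposited files use another build, GRCm39, per the submitters' processing notes, so these coordinates belong to the RefSeq table only. Capitals mark matches on either strand to TCACNCCAC or its shorter form TCACNCCA (sterol response element), CACGTG (E-box), CCAAT (bound by the factor NF-Y) and GGTTA followed after 5 bases by GGTCA (an LXR element). Positions are counted from the start, with -1 as the last base before it. The stretches cover different parts of their windows, so matches seen in them cannot be compared between genes. CCAAT also matched outside the letters shown, at -30 in this Srebf1 window and at -90, -62 and -59 in Fasn. In Hmgcs1 it did so at -237 and 11.
Srebf1, chr11:60210572-60210721, minus strand, first 150 bases of its window: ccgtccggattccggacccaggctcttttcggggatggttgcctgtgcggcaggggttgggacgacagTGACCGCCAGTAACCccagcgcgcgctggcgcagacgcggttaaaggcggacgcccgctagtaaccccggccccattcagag
Fasn, chr11:120824648-120824797, minus strand, first 150 bases of its window: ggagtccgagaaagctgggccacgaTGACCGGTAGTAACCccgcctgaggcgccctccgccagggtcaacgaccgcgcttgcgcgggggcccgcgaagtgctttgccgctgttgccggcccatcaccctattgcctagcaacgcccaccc
Hmgcs1, chr13:119690151-119690350, plus strand, the 200 bases before its start: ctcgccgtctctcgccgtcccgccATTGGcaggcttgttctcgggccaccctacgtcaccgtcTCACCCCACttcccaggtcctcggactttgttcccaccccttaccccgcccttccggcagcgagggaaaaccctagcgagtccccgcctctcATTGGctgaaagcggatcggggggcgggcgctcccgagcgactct
Srebf2, chr15:82147069-82147268, plus strand, the 200 bases before its start: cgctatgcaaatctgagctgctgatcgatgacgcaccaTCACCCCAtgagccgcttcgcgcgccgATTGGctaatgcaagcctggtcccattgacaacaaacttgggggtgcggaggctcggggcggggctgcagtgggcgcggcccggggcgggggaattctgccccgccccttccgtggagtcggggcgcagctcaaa
The Srebf1 and Fasn stretches each held 1 match to the LXR element, at -182 and -225. The 25 matched members had 33 windows in all. That motif occurred in 2 of those 33, or 6.06%, and in 16 of all 32851 promoter windows, or 0.0487%. Only this spelling of the element was searched. Whether the spelling derives from these promoters was not checked, so the shares are no test of enrichment. The Hmgcs1 stretch held the full sterol response element at -137, which no other matched member had. That element lay in 3.03% of member windows and in 1.24% of all windows. The shorter form was found in 3 members, Hmgcs1, Msmo1 and Srebf2, and in 9.09% of member windows, against 4.36% of all windows. CACGTG was found in 5 members, Dhcr7, Hsd17b7, Insig1, Sc5d and Scap, and in 18.2% of member windows, against 7.15% of all windows. CCAAT lay in 20 of the 25 matched members and in 63.6% of member windows, against 37.4% of all windows. GGGCGG, the GC box, lay in 21 members and in 75.8% of member windows, against 35.7% of all windows. The Scap windows overlap, so the same Scap CACGTG and a Scap GC box are each counted in both of them. A match describes letters and is neither a binding site nor a cause, and Srebf1 has 3 windows whose starts a count per gene does not tell apart. Members without an entry were Fads1, Fdft1, Fdps, Scd1, Scd2, Sqle and Stard4.

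In sham tissue the members differed widely in level, here compared as FPKM, the authors' fragment counts corrected for gene length and library total. Scd2, the main brain desaturase that puts a double bond into newly made fatty acids, had the highest level of the 32 at 345 ± 15.1 FPKM (SD, n = 3). Its paralog Scd1 followed at 72.4 ± 2.58 FPKM. Hmgcs1, the synthase that makes HMG-CoA ahead of mevalonate, was the highest sterol enzyme at 57.8 ± 3.71 FPKM. The desaturases of polyunsaturated fatty acids came next, Fads2 at 42.5 ± 4.21 FPKM and Fads1 at 31.1 ± 3.78 FPKM, and their sham ranges did not overlap. Not all fatty acid genes were high: Fasn stood at 21.3 ± 2.02, Elovl6 at 13.4 ± 2.17 and Acaca at 4.88 ± 0.488 FPKM, ranks 10, 17 and 29 of the 32. Lss, which closes squalene epoxide into lanosterol, was the lowest member at 4.47 ± 0.273 FPKM, and its range overlapped that of Tm7sf2, the sterol reductase next to it in the order (4.58 ± 0.559 FPKM). Srebf2 stood at 24.1 ± 2.73 FPKM and Srebf1 at 7.48 ± 0.391 FPKM, ranks 8 and 23 of the 32.

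Library totals ran from 14896445 to 20916606 counts. In a principal component analysis the libraries labelled LPC_Ipsil did not lie together: on the first component (34.4% of variance) replicates 1 and 2 lay at 68.5 and 43.9, while replicate 3 lay at -9.99. Microglia and macrophage markers summed to 462 CPM in that replicate, near the 312 to 426 CPM of sham, and to 3387 and 2117 CPM in replicates 1 and 2. Whether the library labelled LPC_Ipsil replicate 3 is what its label says was not tested, and it enters every LPC_Ipsil mean of 3. The call against sham, the branch medians against sham and against LPC_Contra, and several genes are therefore also given without it. LPC_Contra replicate 2 stood apart on the second component (14.3% of variance) at -53.7. The 10 oligodendrocyte and myelin markers had reads in every library, with summed levels of 16410 to 32220 CPM, and the 5 adipocyte markers (Adipoq, Plin1, Cidec, Cfd and Lep) had at most 6 reads in any library. CPM are counts relative to the library total after TMM scaling (trimmed mean of M-values), in the order of replicates 1, 2 and 3 throughout.

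**Figure D1:**
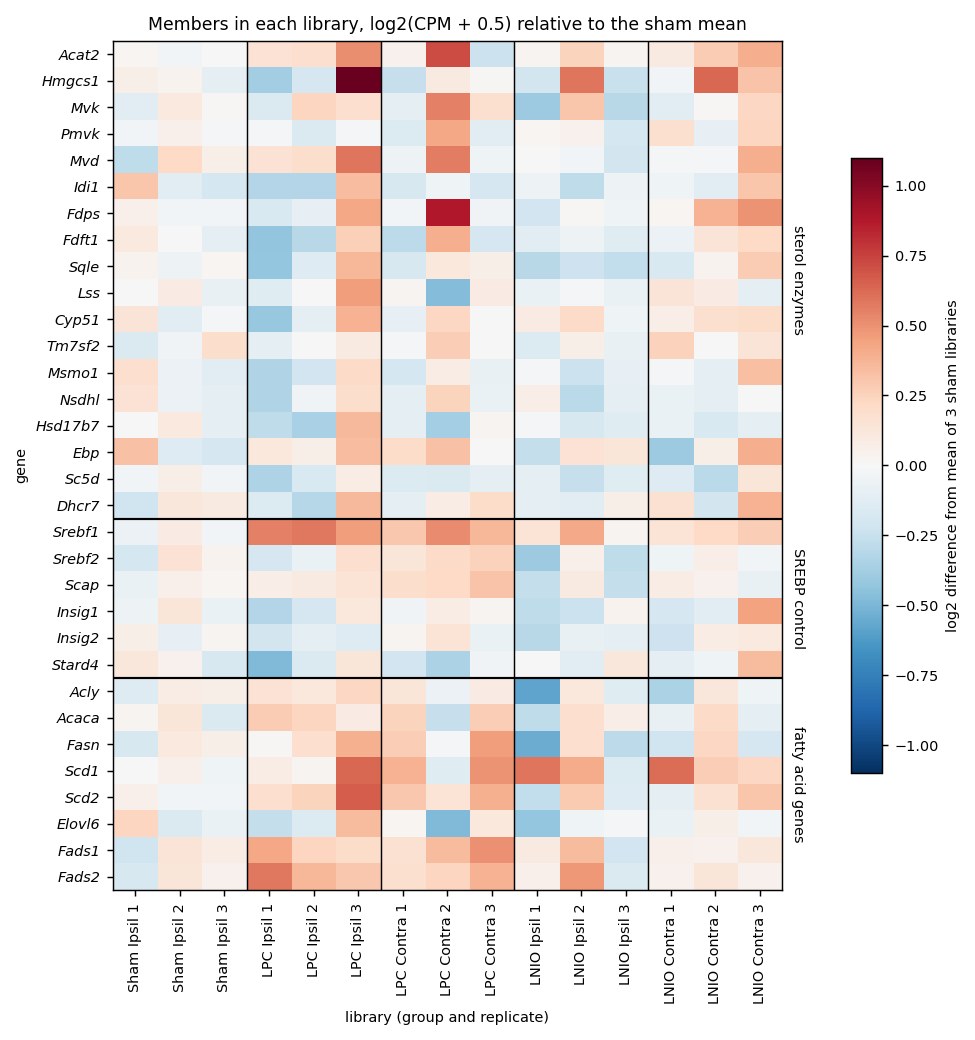
Each row is a gene and each column a library; colour gives the gene's log2(CPM + 0.5) minus its mean over the 3 sham libraries. The row of Srebf1 is above sham in all LPC_Ipsil libraries, and the sterol block is mostly below sham in LPC_Ipsil replicates 1 and 2 and above it in replicate 3.

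At the LPC injection site, 1 of the 32 members passed the test against sham. Srebf1, the SREBP gene of the fatty acid branch, rose, while no sterol enzyme and no fatty acid enzyme was called. The background was 871 called genes of 16795, or 5.19% (4.19% higher), so 1 of 32 members is no more than the share over all genes. At an unadjusted p under 0.05 there were 3 members, Srebf1, Fads2 and Scd2, all higher, against 20.2% of all tested genes (12.8% higher). These are tissue RNA levels, in which fewer cells of a type and less RNA per cell cannot be told apart. For 31 of the 32 members the 95% interval of the change lay within 2-fold in either direction, the exception being Hmgcs1 with an upper bound of 2.05-fold.

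Srebf1 encodes the membrane-bound factor whose short form drives fatty acid genes. Its CPM was 42.8, 47.9 and 44.01 in the sham libraries, 66.2, 67.2 and 61.8 in LPC_Ipsil, 55.1, 64.5 and 57.96 in LPC_Contra, 49.9, 60 and 45.7 in LNIO_Ipsil and 49.9, 52.2 and 54.1 in LNIO_Contra. All 3 LPC_Ipsil libraries lay above all 3 sham libraries. The mean rose from 44.9 ± 2.65 to 65.1 ± 2.87 CPM (SD, n = 3), a log2 fold change of 0.54 ± 0.11 (SE), or 1.45-fold with a 95% interval of 1.23 to 1.71 (edgeR quasi-likelihood test, Benjamini-Hochberg adjusted p = 0.0243). Without LPC_Ipsil replicate 3 the log2 fold change was 0.57 (edgeR adjusted p = 0.00908). The call was lost when only the 6 libraries compared were fitted (edgeR adjusted p = 0.109), with limma-trend on FPKM (adjusted p = 0.0516), and when sham replicate 1, 2 or 3 (0.0641, 0.101 and 0.107, edgeR adjusted p) or LPC_Ipsil replicate 1 or 2 (0.136 and 0.0778) was left out, while the log2 fold change stayed between 0.47 and 0.57 over all alternatives run.

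Srebf2, the SREBP gene of the sterol branch, did not move with it. Its CPM was 160.5, 205 and 189 in the sham libraries, 162, 175 and 209 in LPC_Ipsil, 202, 213 and 219 in LPC_Contra, 139, 191 and 152 in LNIO_Ipsil and 178, 193 and 179.9 in LNIO_Contra. Its LPC_Ipsil and sham libraries overlapped, with a log2 fold change of -0.02 ± 0.14 (SE; edgeR adjusted p = 0.953) and a 95% interval of 0.803 to 1.21-fold. The FPKM ratio of Srebf1 to Srebf2 was 0.34, 0.298 and 0.297 in sham and 0.521, 0.49 and 0.377 in LPC_Ipsil. It was 0.348, 0.385 and 0.337 in LPC_Contra, 0.458, 0.4 and 0.384 in LNIO_Ipsil and 0.357, 0.345 and 0.384 in LNIO_Contra. The ratio in both injured groups and in LNIO_Contra lay above every sham library, whereas 1 LPC_Contra library lay within the sham range.

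The other control genes showed no called change. Insig1, which retains Scap in the endoplasmic reticulum and is itself an SREBP target, had CPM of 75.7, 86.1 and 74.6 in the sham libraries, 62.8, 69.1 and 85.3 in LPC_Ipsil, 76.3, 83.3 and 80.2 in LPC_Contra, 64.8, 66.8 and 80.7 in LNIO_Ipsil and 69.04, 72.6 and 107 in LNIO_Contra. Its LPC_Ipsil libraries ran from below sham to within it (log2 fold change -0.12 ± 0.16 SE, edgeR adjusted p = 0.74). Insig2, the second retention protein, ran from 30.5 CPM in LNIO_Ipsil replicate 1 to 42.1 CPM in LPC_Contra replicate 2, and all 3 LPC_Ipsil libraries lay below all sham libraries (-0.15 ± 0.11 SE, edgeR adjusted p = 0.512). Scap ran from 50.01 CPM in LNIO_Ipsil replicate 1 to 74.6 CPM in LPC_Contra replicate 3 and its LPC_Ipsil libraries lay above sham without overlap (0.11 ± 0.11 SE, edgeR adjusted p = 0.64). Stard4, a carrier of cholesterol between membranes, ran from 21.97 CPM in LPC_Ipsil replicate 1 to 39.7 CPM in LNIO_Contra replicate 3, and its LPC_Ipsil and sham libraries overlapped. The FPKM ratio of Insig1 to Insig2 stayed between 2.04 and 2.95 over all 15 libraries.

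**Figure D2:**
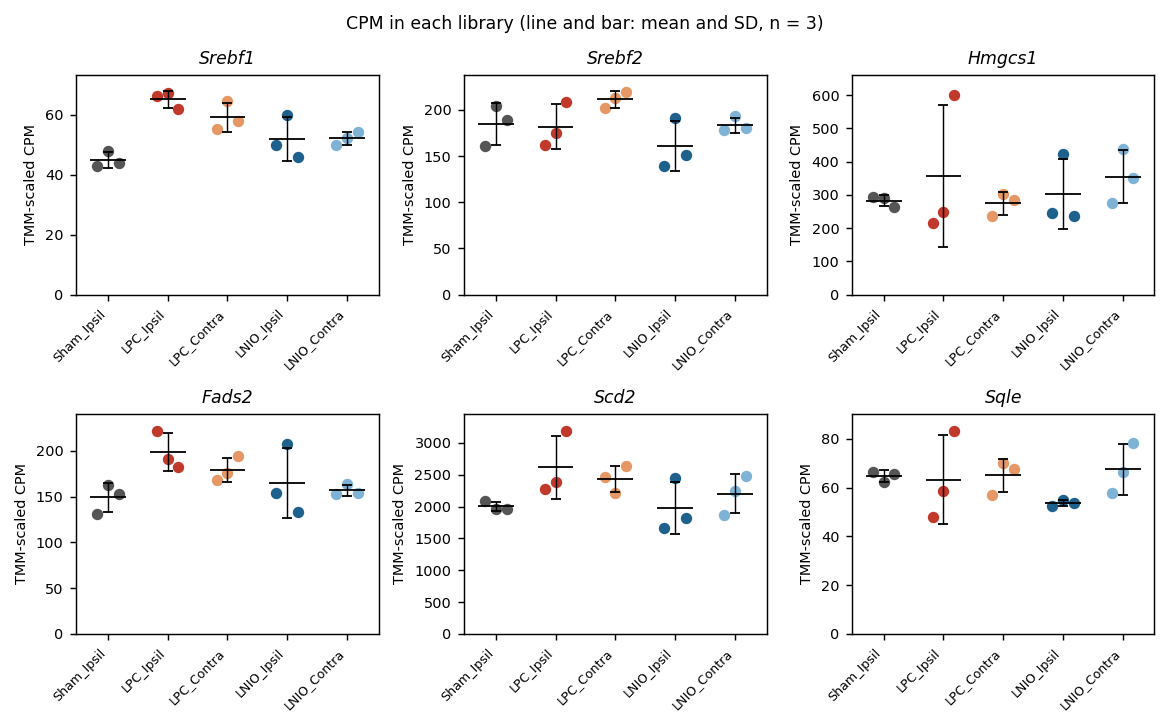
Points are the TMM-scaled CPM of 6 members in each library, with the line and bar at the mean and SD of 3 replicates. Srebf1 in LPC_Ipsil (61.8 to 67.2 CPM) does not overlap sham (42.8 to 47.9 CPM), while 1 LPC_Ipsil library of Hmgcs1 stands at 602 CPM.

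The fatty acid branch was mostly higher at the LPC site, with no gene called. Of its 8 enzymes 7 had a positive log2 fold change and the median was 0.24, beside a median of 0.01 over all tested genes. Groups did not overlap for 4 of the 8, Acly, Scd2, Fads1 and Fads2, all higher, where 14% of all tested genes were higher and 13.5% lower without overlap. Over all 32 members this held for 7 higher (with Acat2, Srebf1 and Scap) and 1 lower (Insig2).

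Acly, which splits citrate to give cytosolic acetyl-CoA to both branches, had CPM of 146, 169 and 168 in the sham libraries, 179, 174 and 188 in LPC_Ipsil, 176, 153 and 170.4 in LPC_Contra, 107, 174 and 146 in LNIO_Ipsil and 126, 175 and 156 in LNIO_Contra. Its LPC_Ipsil libraries were above sham by a log2 fold change of only 0.17 ± 0.16 (SE; edgeR adjusted p = 0.617). Acaca, the carboxylase that makes malonyl-CoA, had CPM of 90.2, 96.9 and 79.3 in the sham libraries, 107, 104 and 94.03 in LPC_Ipsil, 105, 74.1 and 107 in LPC_Contra, 72.8, 101 and 93.3 in LNIO_Ipsil and 83.7, 102 and 82.8 in LNIO_Contra. Its LPC_Ipsil and sham libraries overlapped (0.20 ± 0.16 SE, edgeR adjusted p = 0.532). Fasn, the fatty acid synthase, had CPM of 219.6, 267 and 260 in the sham libraries, 249.9, 282 and 324 in LPC_Ipsil, 299, 246 and 341 in LPC_Contra, 170.1, 283 and 203 in LNIO_Ipsil and 212, 290 and 218 in LNIO_Contra. It overlapped sham as well (0.20 ± 0.19 SE, edgeR adjusted p = 0.618), with replicate 3 the highest of its group.

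Scd1, a desaturase whose gene is a classic SREBP and LXR target, had CPM of 376, 391 and 364 in the sham libraries, 398, 384 and 585 in LPC_Ipsil, 493, 345 and 532 in LPC_Contra, 566, 499 and 340.2 in LNIO_Ipsil and 577, 455 and 442 in LNIO_Contra. LPC_Ipsil replicates 1 and 2 lay near sham and replicate 3 far above it (0.27 ± 0.21 SE, edgeR adjusted p = 0.523; 0.05, adjusted p = 0.919, without replicate 3). Scd2 had CPM of 2085, 1962 and 1968 in the sham libraries, 2279, 2382 and 3180 in LPC_Ipsil, 2463, 2219 and 2630 in LPC_Contra, 1665, 2441 and 1820 in LNIO_Ipsil and 1875, 2246 and 2480 in LNIO_Contra. All 3 LPC_Ipsil libraries exceeded sham, replicate 3 the most, with a log2 fold change of 0.38 ± 0.17 (SE; unadjusted p = 0.0411, edgeR adjusted p = 0.226). Without replicate 3 it was 0.22 (edgeR adjusted p = 0.513).

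Fads1, a desaturase of polyunsaturated fatty acids, had CPM of 136, 174 and 168 in the sham libraries, 213, 187 and 182 in LPC_Ipsil, 178, 202 and 225 in LPC_Contra, 170.4, 201 and 137 in LNIO_Ipsil and 165, 164 and 173 in LNIO_Contra. Fads2, which acts before it in the same series of steps, had CPM of 131, 163 and 153 in the sham libraries, 222, 191 and 182 in LPC_Ipsil, 168, 175 and 194 in LPC_Contra, 154, 208 and 133 in LNIO_Ipsil and 153, 163 and 154 in LNIO_Contra. Both were above sham in every LPC_Ipsil library, and here replicate 1 and not replicate 3 was the highest. The log2 fold change was 0.28 ± 0.15 for Fads1 (SE; edgeR adjusted p = 0.297). It was 0.41 ± 0.15 for Fads2 (SE; unadjusted p = 0.015, edgeR adjusted p = 0.132). Elovl6, which lengthens palmitate, had CPM of 107, 81.00 and 86.00 in the sham libraries, 75.8, 81.6 and 115 in LPC_Ipsil, 92.2, 64.5 and 98.5 in LPC_Contra, 67.6, 87.9 and 89.8 in LNIO_Ipsil and 86.02, 95.1 and 88.8 in LNIO_Contra. It was the only fatty acid enzyme with no positive change (-0.01 ± 0.19 SE, edgeR adjusted p = 0.987), with replicates 1 and 2 within or below sham and replicate 3 above it.

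The sterol branch did not share that pattern. Its 18 enzymes had 7 positive and 11 negative log2 fold changes, a median of -0.01, and none called by edgeR or DESeq2 (0 of 18 at an unadjusted p under 0.05 by edgeR). The group mean hid a wide spread between replicates. LPC_Ipsil replicate 3 was the highest of its group for 17 of the 18 sterol enzymes, where it was the highest for 36.2% of all tested genes. It lay above all sham libraries for 16 of 18 (25.8% of all genes). Replicate 1 lay below all sham libraries for 12 of 18 (31.8% of all genes) and replicate 2 for 10 of 18 (27.9%). The median coefficient of variation of the sterol enzymes was 21.5% in LPC_Ipsil and 7.79% in sham, beside 12.8% and 12.7% over all genes.

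Hmgcs1 showed that spread most plainly, with CPM of 294, 289.6 and 263 in the sham libraries, 216, 249 and 602 in LPC_Ipsil, 236, 302 and 285 in LPC_Contra, 246, 424 and 238 in LNIO_Ipsil and 276, 437 and 351 in LNIO_Contra. Replicates 1 and 2 of LPC_Ipsil lay below all sham libraries and replicate 3 at more than any of the other 14 libraries. Its log2 fold change of 0.33 ± 0.33 (SE; edgeR adjusted p = 0.633) turned to -0.28 without replicate 3 (adjusted p = 0.543). Acat2, the thiolase that joins acetyl-CoA units at the head of the branch, had CPM of 51.3, 49.4 and 50.7 in the sham libraries, 56.4, 57.6 and 72.4 in LPC_Ipsil, 52.2, 83.2 and 42.9 in LPC_Contra, 51.4, 59.8 and 51.4 in LNIO_Ipsil and 54.1, 61.4 and 66.7 in LNIO_Contra. It was the 1 sterol enzyme whose LPC_Ipsil libraries all lay above sham (0.30 ± 0.19 SE, edgeR adjusted p = 0.412). The near-identical mouse gene Acat3 had 154 to 374 reads per library, so reads may be divided between them.

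In the mevalonate steps, Mvd, the decarboxylase that forms isopentenyl pyrophosphate, had CPM of 9.15, 13.1 and 11.8 in the sham libraries, 12.6, 12.9 and 17.2 in LPC_Ipsil, 10.8, 16.9 and 10.8 in LPC_Contra, 11.2, 11.01 and 9.72 in LNIO_Ipsil and 11.1, 11.02 and 14.99 in LNIO_Contra. It overlapped sham in LPC_Ipsil (0.32 ± 0.21 SE, edgeR adjusted p = 0.421). The kinases before it, Mvk and Pmvk, ran from 11.53 CPM in LNIO_Ipsil replicate 1 to 22.8 CPM in LPC_Contra replicate 2 and from 24.2 CPM in LNIO_Ipsil replicate 3 to 37.5 CPM in LPC_Contra replicate 2. Idi1, the isomerase after it, ran from 79.5 CPM in LPC_Ipsil replicate 2 to 126 CPM in LPC_Ipsil replicate 3. Fdps, which makes farnesyl pyrophosphate, had CPM of 42.1, 39.9 and 39.9 in the sham libraries, 36.2, 38.1 and 54.8 in LPC_Ipsil, 39.8, 75.1 and 39.5 in LPC_Contra, 34.98, 41.04 and 39.4 in LNIO_Ipsil and 41.2, 52.96 and 57.4 in LNIO_Contra. The highest Fdps value was that of LPC_Contra replicate 2, not of an injured library.

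At the squalene steps, Fdft1, squalene synthase, had CPM of 93.5, 86.1 and 80.4 in the sham libraries, 63.7, 70.1 and 104 in LPC_Ipsil, 70.96, 114 and 76.2 in LPC_Contra, 79.9, 83.3 and 78.8 in LNIO_Ipsil and 82.7, 95.3 and 101 in LNIO_Contra. LPC_Ipsil replicates 1 and 2 were the lowest of all 15 libraries and replicate 3 was above sham (-0.13 ± 0.19 SE, edgeR adjusted p = 0.768; -0.37, adjusted p = 0.225, without replicate 3). Sqle, the epoxidase often rate-limiting after mevalonate, had CPM of 66.5, 62.1 and 65.6 in the sham libraries, 47.99, 58.7 and 83.3 in LPC_Ipsil, 57.2, 69.98 and 67.8 in LPC_Contra, 52.4, 55.1 and 53.7 in LNIO_Ipsil and 57.7, 66.6 and 78.5 in LNIO_Contra. As for Fdft1, LPC_Ipsil replicate 1 was the lowest of all 15 libraries, and here replicate 3 was the highest (-0.03 ± 0.17 SE, edgeR adjusted p = 0.943; -0.28, adjusted p = 0.281, without replicate 3). Lss had CPM of 50.9, 54.7 and 48.3 in the sham libraries, 46.8, 51.4 and 70.5 in LPC_Ipsil, 52.2, 36.8 and 54.5 in LPC_Contra, 48.6, 50.4 and 48.5 in LNIO_Ipsil and 56.7, 54.4 and 47.4 in LNIO_Contra. Its LPC_Ipsil replicate 3 was again the highest library, and its LPC_Contra replicate 2 the lowest.

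Among the enzymes that turn lanosterol into cholesterol, Sc5d, the desaturase of the sterol ring, had CPM of 74.8, 79.5 and 74.4 in the sham libraries, 60, 67.8 and 80.8 in LPC_Ipsil, 68.6, 68.1 and 71.1 in LPC_Contra, 71.1, 63.7 and 69.4 in LNIO_Ipsil and 68.9, 61.9 and 83.6 in LNIO_Contra. Dhcr7, which reduces the last double bond of one route, had CPM of 34.97, 44.6 and 43.8 in the sham libraries, 36.7, 32.8 and 52.4 in LPC_Ipsil, 38.2, 43.2 and 47.00 in LPC_Contra, 37.8, 37.7 and 42.8 in LNIO_Ipsil and 45.95, 35.5 and 53.6 in LNIO_Contra. Neither was called in LPC_Ipsil (-0.13 ± 0.13 SE, edgeR adjusted p = 0.615 for Sc5d, and -0.02 ± 0.18 SE, edgeR adjusted p = 0.97 for Dhcr7). Cyp51, the demethylase that opens this part, ran from 70.4 CPM in LPC_Ipsil replicate 1 to 123 CPM in LPC_Ipsil replicate 3. Tm7sf2 ran from 19.1 CPM in Sham_Ipsil replicate 1 to 25.9 CPM in LPC_Contra replicate 2. These ranges have different ends, so no single library was the lowest or highest for every late enzyme. Msmo1, which removes methyl groups from the ring, ran from 86.5 CPM in LPC_Ipsil replicate 1 to 138 CPM in LNIO_Contra replicate 3. Nsdhl, a dehydrogenase of the same steps, ran from 22.1 CPM in LPC_Ipsil replicate 1 to 33.4 CPM in LPC_Contra replicate 2. Hsd17b7 ran from 19.1 CPM in LPC_Contra replicate 2 to 32.1 CPM in LPC_Ipsil replicate 3. Msmo1 and Nsdhl were lowest in the same LPC_Ipsil library and Hsd17b7 in LPC_Contra replicate 2. Ebp, the isomerase of the sterol ring, ran from 13.2 CPM in LNIO_Contra replicate 1 to 23.2 CPM in LNIO_Contra replicate 3, with both ends in the LNIO_Contra group.

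Without LPC_Ipsil replicate 3 the median of the sterol enzymes against sham was -0.21 and that of the fatty acid genes 0.18, beside 0.01 over all genes. Srebf1 was then still the only member called, while 1646 genes were called in all. With LPC_Contra replicate 2 left out too, 2 members were called: Srebf1 (0.57, edgeR adjusted p = 0.00435) and Fdft1, lower (-0.37, edgeR adjusted p = 0.0432), of 2360 genes in all. That setting was chosen after seeing the data.

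Marker genes also differed between groups and libraries. All 9 microglia and macrophage markers were called higher in LPC_Ipsil than in sham, with a median log2 fold change of 2.60. None of the 9 was at 0 in any library. Of the 10 oligodendrocyte and myelin markers 0 were called. Their summed level was 32220 CPM in LPC_Ipsil replicate 3 and 20860 and 21070 CPM in the other LPC_Ipsil libraries. It was 16410, 17020 and 26240 CPM in the sham libraries, whose mean sterol differences lay only between -0.04 and 0.03. LPC_Ipsil replicates 1 and 2 lay at -0.20 and -0.09 for sterol enzymes. Called higher were also 2 of 6 markers of newly forming oligodendrocytes, 2 of 5 of their precursors and 1 of 8 of astrocytes, and called lower was 1 of 7 of neurons. The part of these cell types in the levels of sterol and fatty acid genes was not tested.

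**Figure D3:**
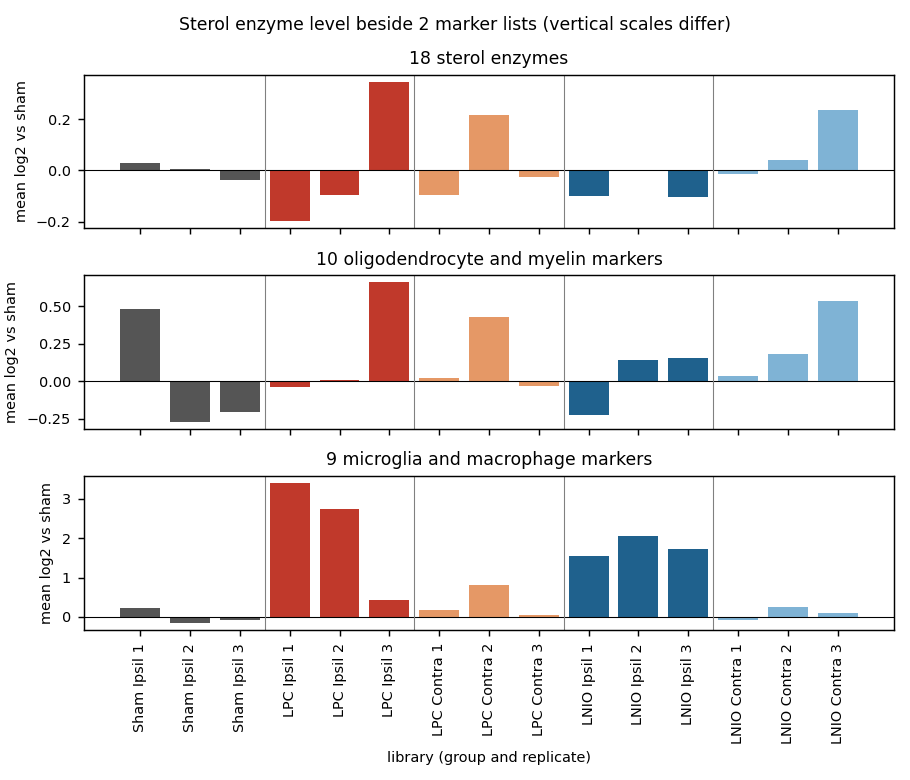
Bars give, for each library, the mean over the genes of a list of log2(CPM + 0.5) minus the sham mean; vertical scales differ. LPC_Ipsil replicate 3 has the highest bar for the 18 sterol enzymes (0.35) and for the 10 oligodendrocyte and myelin markers (0.66) but a low bar for the 9 microglia and macrophage markers (0.42, against 3.40 and 2.74 in replicates 1 and 2). The sham libraries span -0.27 to 0.48 for the oligodendrocyte and myelin markers and -0.04 to 0.03 for the sterol enzymes.

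At the L-NIO injection site no member passed the test against sham, nor did any of the 16795 genes (0% called by edgeR). No member had an unadjusted p under 0.05, against 8.87% of all tested genes, and DESeq2 called 0 members among its 237 genes. All 32 intervals lay within 2-fold, from 0.647 to 1.75. The medians were -0.09 for the sterol enzymes, -0.14 for the control genes and -0.01 for the fatty acid genes, beside -0.02 over all genes. Sterol enzymes had 14 negative log2 fold changes of 18, and fatty acid enzymes 4 of 8.

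Sqle and Sc5d were the sterol enzymes with the smallest p at that site, and both lay below sham in every library. Sqle was at a log2 fold change of -0.27 ± 0.17 (SE; edgeR adjusted p = 0.721), its 3 LNIO_Ipsil libraries being close together at 52.4 to 55.1 CPM. Sc5d was at -0.16 ± 0.13 (SE; edgeR adjusted p = 0.792). Acat2 lay above sham in all 3 libraries, though by little (0.10 ± 0.19 SE, edgeR adjusted p = 0.929). Those 3 were the only members without overlap, 1 higher where 10.1% of all genes were higher and 2 lower where 7.86% were lower. Srebf1 was at 0.21 ± 0.11 (SE; edgeR adjusted p = 0.644), with 1 library within the sham range. Scd1 (0.31 ± 0.21 SE, edgeR adjusted p = 0.755) and Acly (-0.17 ± 0.16 SE, edgeR adjusted p = 0.828) had the smallest p among the fatty acid genes. Scd1 was above all sham libraries in replicates 1 and 2 but not in replicate 3, and Acly was lowest of all 15 libraries in replicate 1. Microglia and macrophage markers summed to 889 to 1337 CPM in LNIO_Ipsil, above the 312 to 426 CPM of sham; their part in these levels was not tested.

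The ratio of the paralogs Scd2 and Scd1 set 2 libraries apart. By FPKM it was 2.63 in LNIO_Ipsil replicate 1 and 2.91 in LNIO_Contra replicate 1, and 4.38 to 5.77 in the other 13 libraries. Same-numbered LNIO libraries also deviated together over all genes, with correlations of 0.62, 0.374 and 0.238. Scd3, a near copy in the same family, had 104 to 187 reads per library.

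On the side opposite LPC no member was called, and 1 of all tested genes was (0.00595%). DESeq2 called 0 members among 28 genes. At an unadjusted p under 0.05 there were 3 members, all higher: Srebf1, Fads1 and Scap, against 9.67% of all genes (4.24% higher). Srebf1 was above sham in all 3 libraries (0.40 ± 0.11 SE, unadjusted p = 0.0029, edgeR adjusted p = 0.492), as were Fads1 (0.34 ± 0.15 SE, edgeR adjusted p = 0.5) and Scap (0.24 ± 0.11 SE, edgeR adjusted p = 0.502). Fads2 (0.26 ± 0.15 SE, edgeR adjusted p = 0.562) and Scd2 (0.28 ± 0.17 SE, edgeR adjusted p = 0.586) also lay above sham without overlap. That made 5 members higher, where 7.06% of all genes were higher, and 1 lower, Sc5d, where 8.07% were lower. The medians were 0.04 for sterol and 0.26 for fatty acid genes, beside 0.02 over all genes.

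LPC_Contra replicate 2 was set apart within both branches. It held the highest value of all 15 libraries for 7 of the 18 sterol enzymes, among them Fdps, Acat2 and Fdft1, while it was the highest for 17.2% of all genes. It was the lowest of its group for 6 of the 8 fatty acid enzymes (40.9% of all genes). Fdps was at 0.34 ± 0.23 (SE; edgeR adjusted p = 0.613) with that library and at -0.03 without it. Acat2 went from 0.24 ± 0.19 (SE; edgeR adjusted p = 0.668) to -0.08. Without it the medians were -0.06 for sterol and 0.31 for fatty acid genes.

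On the side opposite L-NIO no member and no gene was called (0%), no member had an unadjusted p under 0.05 (2.72% of all genes), and DESeq2 called 0 members among 2 genes. The medians were 0.09 for sterol and 0.04 for fatty acid genes, beside 0.00 over all genes. There were 3 members above sham without overlap, Acat2 (0.27 ± 0.19 SE), Srebf1 (0.21 ± 0.11 SE) and Scd1 (0.38 ± 0.21 SE), each with an edgeR adjusted p of 0.9996, where 5.01% of all genes did so. None lay below it, where 5.13% of all genes did. Fdps was at 0.31 ± 0.23 and Scd2 at 0.13 ± 0.17 (SE), both overlapping sham. The 4 comparisons with sham share the 3 sham libraries, so a shift of those libraries enters each of them.

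**Figure D4:**
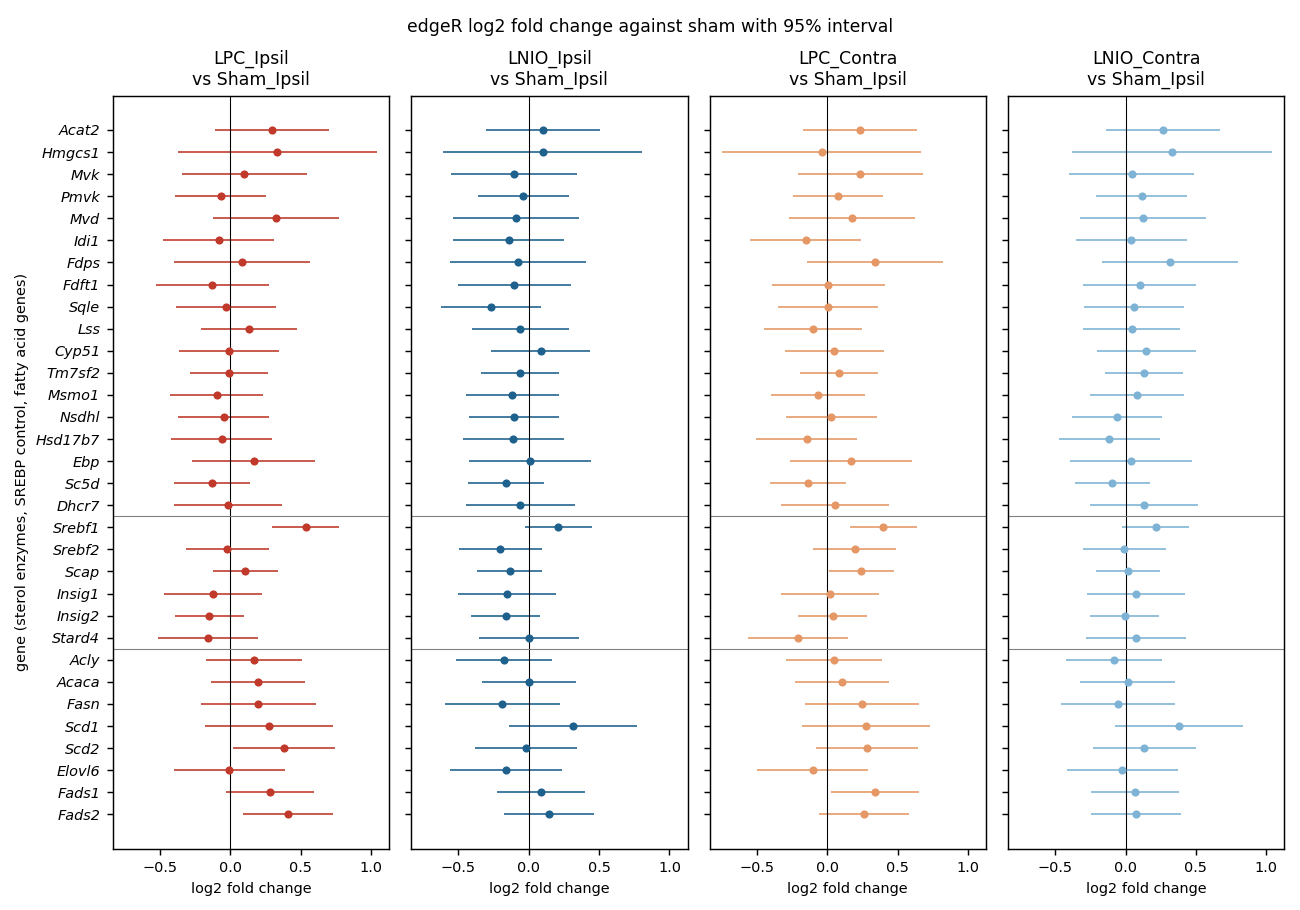
Points are edgeR log2 fold changes against sham for the 32 members, with lines for the 95% interval; horizontal lines part the 18 sterol enzymes, 6 control genes and 8 fatty acid genes. Most intervals cross 0, and that of Srebf1 in LPC_Ipsil (0.30 to 0.77) lies furthest from it.

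Each lesion was also set against its own opposite side. For LPC no member was called by edgeR among 0 genes (0%) or by DESeq2 among 700, and no member had an unadjusted p under 0.05 (12.1% of all genes). The largest positive change was that of Hmgcs1 (0.37 ± 0.33 SE) and the largest negative that of Fdps (-0.26 ± 0.23 SE), both resting on the libraries described above. Srebf1 differed by 0.14 ± 0.11 (SE; edgeR adjusted p = 0.716), with a 95% interval of 0.933 to 1.30-fold. Lss had the smallest p of the sterol enzymes (0.23 ± 0.16 SE, edgeR adjusted p = 0.647). Fads2 (0.15 ± 0.15 SE, edgeR adjusted p = 0.79) and Acly (0.12 ± 0.16 SE, edgeR adjusted p = 0.864) had the smallest p of the fatty acid genes. Scap and Insig2 were lower at the lesion without overlap, where 6.59% of all genes were. No member was higher without overlap, where 7.06% of all genes were. The medians were -0.04 for sterol and 0.10 for fatty acid genes, beside 0.01 over all genes. Without LPC_Ipsil replicate 3 they were -0.19 and -0.04, beside -0.004 over all genes. In that fit edgeR called 0 members among 950 genes (5.55%), and 3 members had an unadjusted p under 0.05. The share of all genes at that unadjusted p is not given here. With only LPC_Contra replicate 2 left out, the medians were 0.07 and -0.05.

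For L-NIO most members were lower at the lesion than opposite it, none past the threshold. Of the 32, 29 had a negative log2 fold change: 17 of 18 sterol enzymes, 6 of 6 control genes and 6 of 8 fatty acid genes, beside 9059 of all 16795 genes. The medians were -0.17, -0.15 and -0.08, beside -0.02 over all genes. The LNIO_Contra libraries were uneven for sterol enzymes. Replicate 3 was the highest of its group for 14 of the 18, where it was the highest for 32% of all tested genes. The mean sterol difference from sham was -0.01, 0.04 and 0.24 in LNIO_Contra, and -0.10, -0.004 and -0.10 in LNIO_Ipsil. edgeR called 0 genes (0%) and 0 members had an unadjusted p under 0.05 (6.08% of all genes); DESeq2 called 0 members among 180 genes. Sqle (-0.33 ± 0.17 SE, unadjusted p = 0.0673, edgeR adjusted p = 0.896) and Fdps (-0.39 ± 0.23 SE, edgeR adjusted p = 0.974) were lower without overlap, where 5.24% of all genes were, and no member was higher, where 7.91% of all genes were. Within same-numbered pairs of L-NIO libraries, a count added after seeing the data, 11 of the 32 members were lower at the lesion in all 3 pairs, where 17.7% of all tested genes were. They were Acat2, Hmgcs1, Idi1, Fdps, Fdft1 and Sqle of the sterol enzymes, Srebf2, Insig1 and Insig2 of the control genes, and Acly and Fasn. No member was higher in all 3 pairs, where 16.2% of all genes were. With the replicate number as a block, edgeR still called 0 members. Among the fatty acid genes the smallest p belonged to Scd2 (-0.16 ± 0.17 SE) and Elovl6 (-0.14 ± 0.19 SE). The difference between the models in this lesion contrast was tested as an interaction, which called 0 members and 0 genes (0%) by edgeR and by DESeq2, with 0 members at an unadjusted p under 0.05 (1.02% of all genes).

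Between the lesions, no member differed past the threshold, by edgeR among 0 genes (0%) or by DESeq2 among 18. At an unadjusted p under 0.05 there were 3, all lower after L-NIO, against 8.39% of all genes (5.44% lower). Srebf1 was lower by a log2 fold change of -0.33 ± 0.11 (SE; unadjusted p = 0.0104, edgeR adjusted p = 0.559), a 95% interval of 0.676 to 0.940-fold, and without overlap. Scd2 was at -0.40 ± 0.17 (SE; unadjusted p = 0.032, edgeR adjusted p = 0.565) and Scap at -0.24 ± 0.11 (SE; unadjusted p = 0.0415, edgeR adjusted p = 0.591). Mvd (-0.42 ± 0.21 SE, edgeR adjusted p = 0.605) was the only other member without overlap, lower like Srebf1, where 7.61% of all genes were. No member was higher without overlap, where 6.07% were. Acly (-0.34 ± 0.16 SE, edgeR adjusted p = 0.594) and Sqle (-0.24 ± 0.17 SE, edgeR adjusted p = 0.706) overlapped. Thus Srebf1 was called against sham at the LPC site and not at the L-NIO site, yet the direct test of the lesions did not pass.

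The opposite sides of the lesions did not differ past the threshold in any member. Between LNIO_Contra and LPC_Contra edgeR called 0 members among 0 genes (0%), 0 members had an unadjusted p under 0.05 (3.43% of all genes), and DESeq2 called 0 members among 8 genes. Srebf1 (-0.18 ± 0.11 SE), Srebf2 (-0.20 ± 0.14 SE), Scap (-0.22 ± 0.11 SE), Fads1 (-0.27 ± 0.15 SE) and Fads2 (-0.19 ± 0.15 SE) were lower opposite L-NIO without overlap, where 4.67% of all genes were. No member was higher without overlap, where 3.88% were.

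The branches can be set against each other by the median log2 fold change of the sterol enzymes minus that of the fatty acid genes, a description with no test. It was -0.25 for LPC_Ipsil against sham, with a range of -0.39 to -0.14 when single libraries were left out. It was -0.22 for LPC_Contra (-0.37 to -0.06), -0.08 for LNIO_Ipsil (-0.15 to 0.07) and 0.05 for LNIO_Contra (-0.07 to 0.14), all against sham. Thus it was negative in every such run for both LPC groups and changed sign in both LNIO groups. Between the sides it was -0.13 for LPC (-0.21 to 0.12) and -0.09 for L-NIO (-0.19 to 0.02), and between the lesions, L-NIO minus LPC, it was 0.17 (0.05 to 0.34).

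By library, the mean difference from sham was -0.20, -0.09 and 0.35 for the sterol enzymes in LPC_Ipsil, and 0.18, 0.16 and 0.36 for the fatty acid genes. The sham libraries lay between -0.04 and 0.03 for sterol and between -0.05 and 0.06 for fatty acid genes. So all 3 LPC_Ipsil libraries were above sham for fatty acid genes, while for sterol enzymes replicates 1 and 2 were below and replicate 3 above. In LPC_Contra the values were -0.09, 0.22 and -0.03 for sterol and 0.21, -0.03 and 0.34 for fatty acid genes. Replicate 2 thus reversed the order of the branches there. In LNIO_Ipsil they were -0.10, -0.004 and -0.10 for sterol and -0.17, 0.25 and -0.13 for fatty acid genes. In LNIO_Contra they were -0.01, 0.04 and 0.24 for sterol and -0.01, 0.16 and 0.04 for fatty acid genes. Sterol minus fatty acid averaged -0.21 ± 0.19 in LPC_Ipsil, -0.14 ± 0.34 in LPC_Contra, -0.05 ± 0.17 in LNIO_Ipsil and 0.03 ± 0.16 in LNIO_Contra (SD, n = 3), so outside LPC_Ipsil the spread exceeded the mean.

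**Figure D5:**
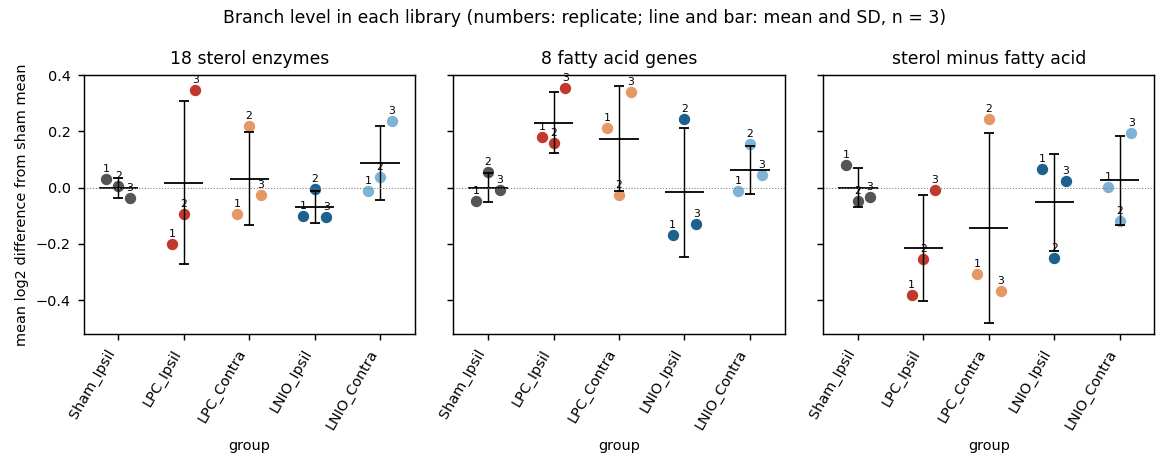
Points are the mean over genes of log2(CPM + 0.5) minus the sham mean, numbered by replicate, with line and bar at the mean and SD of 3 libraries, for the sterol enzymes, the fatty acid genes and their difference. LPC_Ipsil lies above 0 in all 3 libraries for fatty acid genes (0.16 to 0.36) and on both sides of 0 for sterol enzymes (-0.20 to 0.35).

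Other genes of these pathways, from lists that hold none of the 32, gave no call either. Of 13 further sterol and SREBP genes 12 were tested (Faxdc2 had too few reads), with 0 called in each of the 9 comparisons. Against sham in LPC_Ipsil, 2 of the 12 had an unadjusted p under 0.05, where 20.2% of all tested genes had one, and the median log2 fold change was 0.07. Those were Soat1, which esterifies cholesterol for storage, at 0.72 and Ggps1, which makes geranylgeranyl pyrophosphate, at -0.26. Of 16 further fatty acid genes, covering other elongases, acyl-CoA ligases and donors of acetyl-CoA or reducing power, 0 were called in any comparison. In LPC_Ipsil 4 of the 16 had an unadjusted p under 0.05, a share near that of all genes, with a median over the 16 of 0.06. The citrate carrier Slc25a1 (0.41) and the elongases Elovl1 (0.41) and Elovl5 (0.26) were positive and the elongase Elovl4 negative (-0.27). Of 8 genes of myelin sphingolipid synthesis 0 were called in any comparison and 0 had an unadjusted p under 0.05 in LPC_Ipsil (median 0.11).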

How the data were processed

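The 32 members, their branches and all lists were chosen with earlier results of these data known. The deposited count table gives whole counts of reads per gene symbol, and the FPKM table the authors' values corrected for gene length and depth, both for 15 libraries. Per the submitters' processing notes, HISAT2 2.2.1, R 4.4.2 and GRCm39 were used. The read counter, strandedness and gene annotation were not given in the sources used here, which leaves overlapping genes and near copies uncertain. 74 symbols repeat and 0 columns were left unmatched.

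Totals of 14896445 to 20916606 counts were scaled by TMM (factors 0.966 to 1.06). edgeR 4.0.16 in R 4.3.3 (filterByExpr by group, minimum count 10, minimum total 15) fitted 16795 genes in one model over the 5 groups with no block, tested by quasi-likelihood F with robust fitting (common dispersion 0.0453). Calls needed an adjusted p (Benjamini-Hochberg, over all 16795 genes) under 0.05. SE is the size of the log2 fold change over the square root of F. Members named with every library are those called, 12 listed by name, and the 2 of each branch with the smallest p in 7 comparisons.

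Alternatives used DESeq2 1.42.0, limma 3.58.1 on log2(FPKM + 0.1), other scaling, no filter, fewer groups, a replicate block and left-out libraries. Labels share replicate numbers across groups. Same-numbered LNIO sides deviated together (correlations 0.62, 0.374 and 0.238), while LPC sides did not all do so (-0.0564, 0.161 and 0.336). LNIO_Ipsil replicate 3 also correlated at 0.203 with LNIO_Contra replicate 2. LNIO_Contra replicate 3 correlated at 0.371 with LPC_Contra replicate 2, a library of the other model. Whether same-numbered sides came from one mouse therefore cannot be told from these values. Replicate pairs differed by chi-square per degree of freedom of 10.1 to 63.7, so none looked like a repeated deposit. Data were simulated for LPC_Ipsil against sham over 16795 genes, with 50 genes changed at each fold. Of these, 6% were recovered at 1.5-fold, 44% at 2-fold, 94% at 3-fold and 96% at 4-fold, with 6 false calls. Every simulated gene had the common dispersion of 0.0453, and no library was made to stand apart, unlike in the real data. In the real comparison 871 genes were called, and Srebf1 was called at a log2 fold change of 0.54. The recovered shares therefore describe the simulated settings and not the chance of a call in the real data.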

Additional observations from a re-analysis of the deposited data

How the results depend on the processing

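Srebf1 in LPC_Ipsil against sham was the only member called. The number of members called there was 0 when only the groups compared were fitted and 0 with limma-trend on FPKM, and 0 to 1 over the fits that left out 1 library (0 without any one of sham replicates 1, 2 and 3 and LPC_Ipsil replicates 1 and 2). It was 2 with LPC_Ipsil replicate 3 and LPC_Contra replicate 2 both left out, an alternative chosen after seeing the data. In the other 8 comparisons 0 members were called under every alternative run. The replicate block by number kept Srebf1 (log2 fold change 0.54, edgeR adjusted p = 0.0308), and neither block changed the call of any member. Genes called in all in LPC_Ipsil against sham were 871, against 524 with no filter on low counts, 0 with only the groups compared, 1512 with DESeq2, 3 with limma-trend and 0 to 1646 when 1 library was left out. For LPC_Ipsil against LPC_Contra they were 0, against 700 with DESeq2 and 950 without LPC_Ipsil replicate 3. For LNIO_Ipsil against sham they were 0, against 378 with only the groups compared, 237 with DESeq2 and 398 without LPC_Ipsil replicate 3. For LNIO_Ipsil against LNIO_Contra they were 0, against 359, 180 and 380 under the same settings, and for LNIO_Ipsil against LPC_Ipsil 0, against 18 with DESeq2 and 241 without LPC_Ipsil replicate 3. The sterol minus fatty acid difference in LNIO_Ipsil against sham ran from -0.15 to 0.068 when 1 library was left out, the upper value without LNIO_Ipsil replicate 2. Hmgcs1 in LPC_Ipsil against sham, at 0.33, ran from -0.28 (without LPC_Ipsil replicate 3) to 0.59 (without LPC_Ipsil replicate 1) when 1 library was left out, and reversed also with both libraries left out (-0.28). Groups of 3 limit the size of change that can be called: the widest 95% interval of a member against sham reached 2.05-fold.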
